A study of Mus musculus with 6 samples.

Results

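The miRNAs that mark blood cells and vessels were followed in small RNA-seq of mouse Achilles tendon, through 8 loci chosen by name: Mir126a, Mir142, Mir150, Mir223, Mir146a, Mir146b, Mir155 and Mir144. The table of counts held 2265 small RNA features, of which 1178 were named as miRNA loci, and each of the 8 loci had 1 row. Mir146a was listed there as Mir146, a locus to which RefSeq assigns the mature miR-146a. Tendon was taken at 4 weeks of age from 3 genotypes. Control mice were Dicer f/f without Cre, ScxHt mice carried 1 copy of the ScxCre knock-in allele with Dicer +/+, and Dicer cKO mice carried the same knock-in with Dicer f/f. Cre driven from Scx acts chiefly in tendon and ligament cells, and whether Dicer was deleted in blood or vessel cells of the tissue was not tested here. The Cre sequence sits in the Scx gene itself, so both Cre genotypes have 1 altered Scx allele. Each genotype gave 1 small RNA-seq and 1 RNA-seq library, with the same sample number in the labels for both. Per the study's supplement, each library was from 1 mouse.

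Dicer is the ribonuclease that cuts the hairpin of a precursor miRNA into the short duplex from which the mature strand is loaded into an Argonaute protein. A miRNA then pairs through its seed, bases 2 to 8 from its 5′ end, with sites in the 3′ untranslated region of mRNAs and lowers their stability and translation. The 8 loci were chosen as miRNAs known from blood cells and vessels. miR-126, the leading miRNA of endothelial cells, favours vascular endothelial growth factor signalling. miR-142 is made throughout the blood lineages, miR-223 mainly in granulocytes and monocytes, and miR-150 mainly in mature lymphocytes. miR-155 is induced when macrophages and lymphocytes are activated, miR-146a and miR-146b are induced by NF-κB and dampen Toll-like receptor signalling, and miR-144 is made in erythroid precursors from 1 transcript with miR-451a, a miRNA that is matured by Argonaute 2 without Dicer.

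The mature strands usually found in cells are shown for 7 of the 8 members, because the seed decides which mRNAs each can pair with, and miR-451a is added as the partner of miR-144. The sequences are from RefSeq (GRCm38.p6), written 5′ to 3′ with the seed in capitals. No mature sequence is printed for miR-150.
miR-126a-3p: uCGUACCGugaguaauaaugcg
miR-142a-3p: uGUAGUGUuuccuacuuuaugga
miR-223-3p: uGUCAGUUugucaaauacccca
miR-155-5p: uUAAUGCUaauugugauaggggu
miR-146a-5p: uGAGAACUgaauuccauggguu
miR-146b-5p: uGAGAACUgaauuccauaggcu
miR-144-3p: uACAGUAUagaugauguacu
miR-451a: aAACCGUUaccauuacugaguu
Only miR-146a-5p and miR-146b-5p shared a seed among these strands. They were identical at 20 of 22 positions and differed by G18A and U21C, with positions counted from the 5′ end and the base of miR-146a first, so both differences lay outside the seed. The deposited counts were per hairpin locus and did not separate the strands of a hairpin.

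The hairpins lay on 6 chromosomes (GRCm38, annotation GENCODE vM21). Mir126a (chr2:26591357-26591429, plus strand) lay within Egfl7, the gene of a protein secreted by endothelial cells, and overlapped an exon of one of its annotated transcripts. Mir142 (chr11:87756864-87756927, plus strand) lay in an intron of the non-coding Mir142hg, and Mir155 (chr16:84714140-84714204, plus strand) in an exon of the non-coding Mir155hg. Mir223 (chrX:96242817-96242926, plus strand) overlapped an exon of F630028O10Rik, and Mir146b (chr19:46342762-46342870, plus strand) lay in an intron of Mfsd13a. No annotated gene overlapped Mir150 (chr7:45121757-45121821, plus strand), Mir146a (chr11:43374397-43374461, minus strand) or Mir144 (chr11:78073005-78073070, plus strand). Mir144 ended 99 bases before Mir451a. Mir126a and Mir142 each have a miRNA annotated on the opposite strand. Mir126b had 1 read in Control, 7 in ScxHt and 2 in Dicer cKO, and Mir142b had 0 in each library, where a count of 0 allows 0.273 CPM (counts per 1000000 counts of the library) in Control and 0.356 in ScxHt and in Dicer cKO.

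The small RNA-seq libraries held 10986541 counts (Control), 8437993 (ScxHt) and 8435829 (Dicer cKO), and the RNA-seq libraries held 14959399 to 16244232. With 1 library per genotype there was no replicate, and no test of a genotype could be made. Intervals are 95% and cover counting error only, and reads of amplified libraries are not independent molecules. Dicer1, the gene that carries the floxed alleles, had 118 CPM in Control, 128 in ScxHt and 108 in Dicer cKO. The count is over the whole gene and cannot check the deleted part. Scx was at 64.9, 43.5 and 24.8 CPM in the same order. The libraries also differed in tissue markers. The summed level of 7 tendon genes was 131135, 112874 and 75420 CPM, and that of 7 skeletal muscle genes was 51861, 29100 and 88984. The part of these differences in the results below was not tested.

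The 8 loci together took 2.19% of the small RNA-seq counts in Control, 2.15% in ScxHt and 2.47% in Dicer cKO. Most of that was one miRNA. Mir126a gave 83.9% of the reads of the 8 loci in Control, 82.9% in ScxHt and 86.8% in Dicer cKO. By reads it ranked 17th of the 634 features with any read in Control, 16th of 625 in ScxHt and 19th of 579 in Dicer cKO. The other 7 loci summed to 3522 CPM in Control, 3678 in ScxHt and 3263 in Dicer cKO.

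To compare loci with each other, the RPKM values of the authors were used, which divide by the length of the hairpin feature. In Control the order was Mir126a at 251801 RPKM, Mir146a at 21373, Mir142 at 9819, Mir150 at 6199, Mir223 at 5446, Mir146b at 3875, Mir155 at 961 and Mir144 at 258. In ScxHt and in Dicer cKO the first 3 and the last 3 places were the same. Mir223 at 7272 RPKM stood above Mir150 at 6830 in ScxHt, while in Dicer cKO Mir150 at 6416 stood above Mir223 at 5125. Since a mature strand is a small piece of the hairpin, division by feature length favours loci annotated with a short hairpin: 64 bases were annotated for Mir142 and 110 for Mir223. By reads instead of RPKM, Mir142 and Mir223 held neighbouring places among the 8 loci in each library. Mir142 stood above Mir223 in Control (6904 against 6582 reads). Mir223 stood above Mir142 in ScxHt (6750 against 5484) and in Dicer cKO (4756 against 4654). In Control only, Mir146b stood above Mir150 by reads (4641 against 4427).

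**Figure D1:**
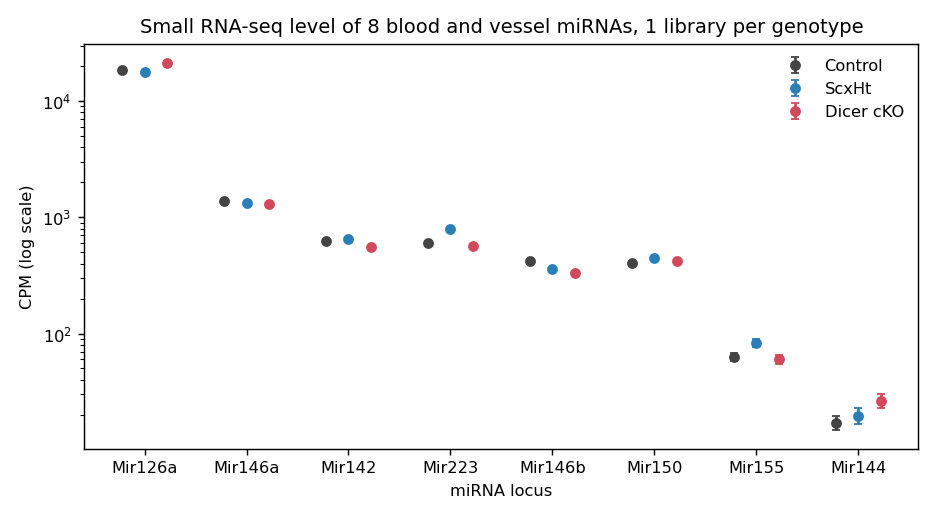
Small RNA-seq level, in CPM on a log scale, of the 8 loci in Control, ScxHt and Dicer cKO; each point is 1 library and bars are 95% counting intervals. Mir126a stands between 17804 and 21415 CPM, and Mir144 between 17.0 and 26.4.

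Between libraries, ratios are of counts normalized with DESeq2 size factors for the pair of libraries compared. None of the 8 loci passed the ratio limits of the study, above 1.67 or below 0.60, in any of the 3 comparisons, and all 8 exceeded its minimum mean normalized count of 15. The same held for all 144 ratios computed for the 8 loci under 5 other scalings or with a pseudocount of 1. Of the 334 small RNA features above the minimum in Dicer cKO over Control, 8.38% were past the upper limit and 4.19% past the lower one. The background was 3.01% higher and 6.93% lower of 332 features for ScxHt over Control, and 11.2% higher and 2.17% lower of 322 for Dicer cKO over ScxHt. With shares of this size, 8 loci without a call are not set apart from the other features. The median log2 ratio of the 8 loci was -0.25 for Dicer cKO over Control, -0.11 for ScxHt over Control and -0.10 for Dicer cKO over ScxHt, with 6 of the 8 ratios below 1 each time. The medians over all features were -0.023, -0.022 and -0.0065. Scaling by total counts moved the median of all features by 0.18 for Dicer cKO over Control and 0.21 for ScxHt over Control. The medians of the 8 loci in these comparisons therefore depend on the scaling. With total counts they were -0.067 for Dicer cKO over Control and 0.094 for ScxHt over Control, where the direction turned.

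With size factors, the vessel miRNA differed little between Dicer cKO and Control. Mir126a had 201949 reads in Control, 150234 in ScxHt and 180654 in Dicer cKO, or 18382, 17804 and 21415 CPM. By CPM, the Dicer cKO level was the highest of the 3, and Control and ScxHt lay close together. With size factors, Control and Dicer cKO lay close together and ScxHt was lower, so the library that stood apart depended on the scaling. The normalized ratio was 1.03 for Dicer cKO over Control (interval 1.02 to 1.03) and 0.838 for ScxHt over Control (0.833 to 0.844). Between the genotypes with Cre, Dicer cKO over ScxHt, it was 1.20 (1.19 to 1.21). At this depth the counting intervals are narrow, and the choice of scaling moved the ratios by more than the intervals: from 1.03 to 1.17 for Dicer cKO over Control and from 0.838 to 0.969 for ScxHt over Control.

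The 4 leukocyte miRNAs had ratios of Dicer cKO over ScxHt between 0.705 and 0.939, none past the limit. Mir142, the pan-haematopoietic miRNA, had 6904 reads in Control, 5484 in ScxHt and 4654 in Dicer cKO, or 628, 650 and 552 CPM. Its ratio was 0.773 for Dicer cKO over Control (0.744 to 0.802) and 0.849 for Dicer cKO over ScxHt (0.816 to 0.883). Both stayed below 1 under each scaling tried, whereas the ratio of ScxHt over Control, 0.895 (0.864 to 0.927), became 1.03 with total counts.

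Mir223, the myeloid miRNA, had 6582 reads in Control, 6750 in ScxHt and 4756 in Dicer cKO, or 599, 800 and 564 CPM. ScxHt stood above the other two. The ratio was 1.16 for ScxHt over Control (1.12 to 1.20), 0.828 for Dicer cKO over Control (0.798 to 0.860) and 0.705 for Dicer cKO over ScxHt (0.679 to 0.731). Among the 322 features of that last comparison Mir223 had the 30th lowest ratio. Mir155, the miRNA of activated macrophages and lymphocytes, was rarer and had the same order of libraries. It had 686 reads in Control, 696 in ScxHt and 508 in Dicer cKO, or 62.4, 82.5 and 60.2 CPM. Its ratio was 1.14 for ScxHt over Control (1.03 to 1.27), 0.849 for Dicer cKO over Control (0.755 to 0.953) and 0.730 for Dicer cKO over ScxHt (0.650 to 0.820), the 37th lowest of 322. The directions of the Mir223 and Mir155 ratios were kept under each scaling tried.

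Mir150, the lymphocyte miRNA, varied least of the leukocyte miRNAs. It had 4427 reads in Control, 3746 in ScxHt and 3518 in Dicer cKO, or 403, 444 and 417 CPM. The ratio was 0.911 for Dicer cKO over Control (0.871 to 0.952) and became 1.03 with total counts. It was 0.953 for ScxHt over Control (0.912 to 0.996) and became 1.10 with total counts and 1.02 with total counts that left out the most abundant features. The ratio of Dicer cKO over ScxHt was 0.939 (0.897 to 0.984).

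Mir146a and Mir146b were highest in Control. Mir146a had 15263 reads in Control, 11169 in ScxHt and 11067 in Dicer cKO, or 1389, 1324 and 1312 CPM. The libraries with Cre were nearly equal, at a ratio of 0.991 for Dicer cKO over ScxHt (0.965 to 1.02), which lay on both sides of 1 under the scalings tried. Against Control the ratio was 0.831 in Dicer cKO (0.811 to 0.852) and 0.824 in ScxHt (0.804 to 0.845). Mir146b had 4641 reads in Control, 3022 in ScxHt and 2796 in Dicer cKO, or 422, 358 and 331 CPM. Its ratio of 0.690 for Dicer cKO over Control (0.659 to 0.724) was the lowest of the 8 loci and the 36th lowest of the 334 features. For ScxHt over Control it was 0.734 (0.701 to 0.768), and for Dicer cKO over ScxHt 0.925 (0.879 to 0.974). The loci that share a seed did not keep one proportion: there were 3.29 Mir146a reads per Mir146b read in Control (3.18 to 3.40), 3.70 in ScxHt (3.55 to 3.85) and 3.96 in Dicer cKO (3.80 to 4.13). This ratio is taken within a library and needs no scaling.

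The erythroid Mir144 had the highest ratio of Dicer cKO over Control among the 8 loci. It had 187 reads in Control, 164 in ScxHt and 223 in Dicer cKO, or 17.0, 19.4 and 26.4 CPM. The ratio was 1.37 for Dicer cKO over Control (1.12 to 1.67) and 1.36 for Dicer cKO over ScxHt (1.11 to 1.67). For ScxHt over Control it was 0.988 (0.796 to 1.23), with the direction turned under 4 of 6 alternatives. Mir451a, from the same transcript, had 559, 394 and 586 reads, with a ratio of 1.20 for Dicer cKO over Control (1.07 to 1.35) and 1.49 for Dicer cKO over ScxHt (1.31 to 1.69). Reads of Mir144 and Mir451a could be set against each other within each library, which needs no scaling. There were 33.5 Mir144 reads per 100 Mir451a reads in Control (28.2 to 39.5), 41.6 in ScxHt (34.5 to 50.1) and 38.1 in Dicer cKO (32.5 to 44.5). These intervals overlap, and with 1 library per genotype no difference could be tested. Whether Dicer was deleted in erythroid cells was not tested, so this ratio cannot show how Dicer processed miR-144.

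**Figure D2:**
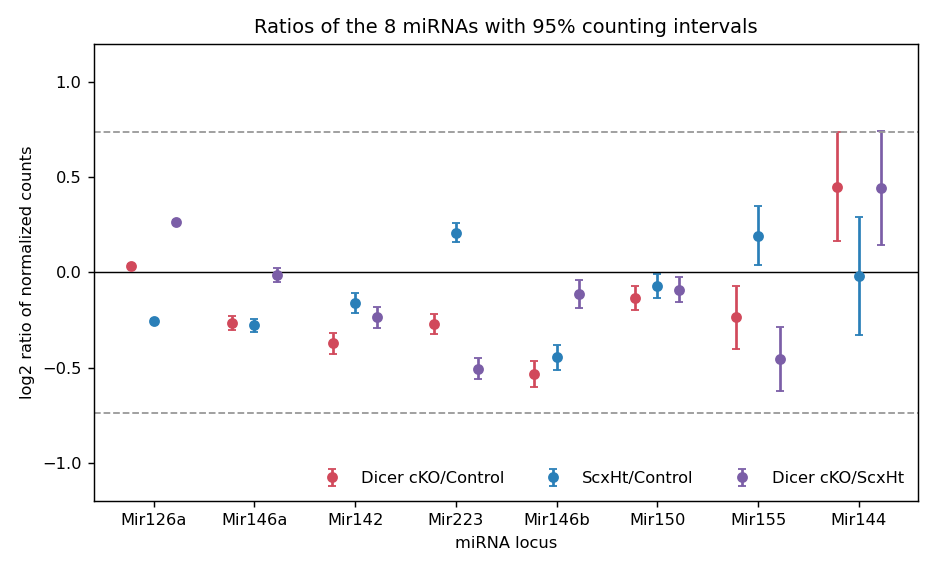
log2 ratios of normalized small RNA-seq counts for the 8 loci in 3 comparisons of single libraries, with 95% counting intervals; dashed lines mark ratios of 1.67 and 0.60. Every point lies between the lines, the lowest being Mir146b at 0.690 and the highest Mir144 at 1.37, both for Dicer cKO over Control.

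Reads of the other 7 loci were then set against Mir126a reads of the same library. The cells that made each miRNA in this tissue were not tested. All of these ratios share the Mir126a count. Of the 7, 6 were lowest in Dicer cKO, where Mir126a had its highest CPM, and Mir144 was the exception. Among these 6, only Mir150 was not lowest in Dicer cKO by its own CPM. Mir142 reads were 3.42% of Mir126a reads in Control (3.34 to 3.50), 3.65% in ScxHt (3.55 to 3.75) and 2.58% in Dicer cKO (2.50 to 2.65). Mir223 reads were 3.26% in Control (3.18 to 3.34), 4.49% in ScxHt (4.38 to 4.60) and 2.63% in Dicer cKO (2.56 to 2.71). Mir142, Mir223, Mir150 and Mir155 had the same order of libraries, highest in ScxHt and lowest in Dicer cKO. Mir150 reads were 2.19%, 2.49% and 1.95% of Mir126a reads in Control, ScxHt and Dicer cKO, and Mir155 reads were 0.340%, 0.463% and 0.281%. Mir146a and Mir146b kept another order, with Control at the top. Mir146a reads were 7.56% of Mir126a reads in Control, 7.43% in ScxHt and 6.13% in Dicer cKO, and Mir146b reads were 2.30%, 2.01% and 1.55%. Mir144 reads were 0.0926% in Control (0.0798 to 0.107), 0.109% in ScxHt (0.0931 to 0.127) and 0.123% in Dicer cKO (0.108 to 0.141), with intervals of neighbouring libraries overlapping.

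Proportions among the leukocyte miRNAs also differed between libraries. There were 0.953 Mir223 reads per Mir142 read in Control (0.922 to 0.986), 1.23 in ScxHt (1.19 to 1.28) and 1.02 in Dicer cKO (0.981 to 1.06). The ScxHt library was thus the richest in the myeloid miRNA relative to the pan-haematopoietic one. There were 0.641 Mir150 reads per Mir142 read in Control (0.617 to 0.666), 0.683 in ScxHt (0.655 to 0.712) and 0.756 in Dicer cKO (0.723 to 0.790).

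**Figure D3:**
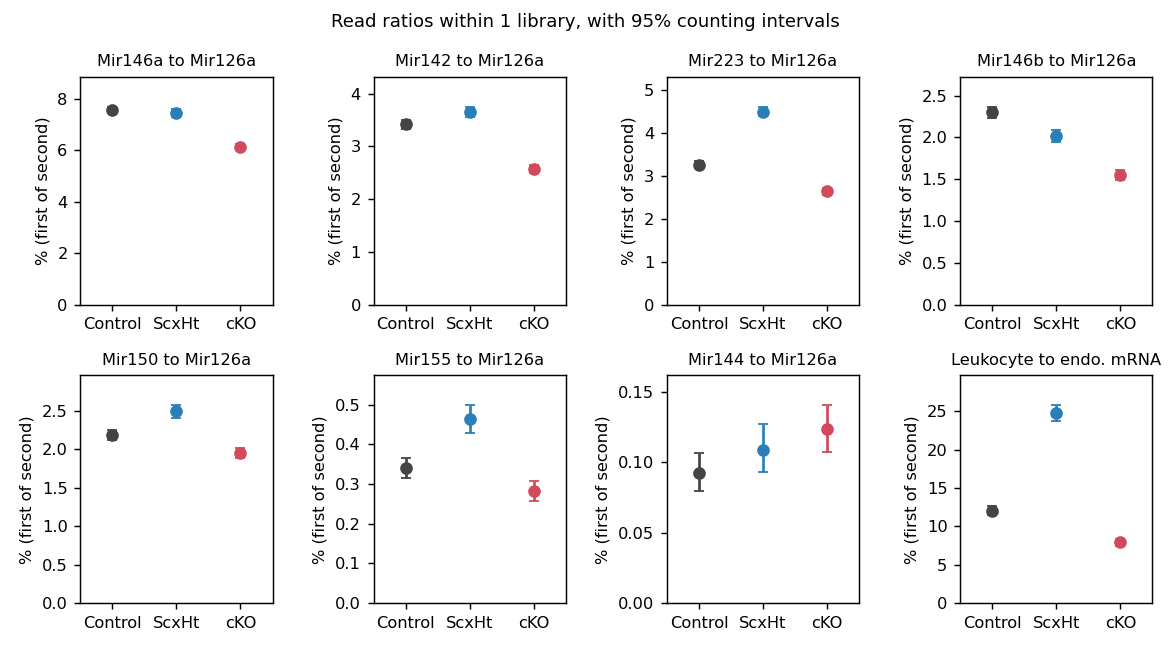
Reads of 7 loci as a percentage of Mir126a reads in the same small RNA-seq library, and summed reads of 11 pan-leukocyte genes as a percentage of those of 12 endothelial genes in RNA-seq (last panel), with 95% counting intervals; each point is 1 library. Mir142, Mir223, Mir150 and Mir155 stand highest in ScxHt and lowest in Dicer cKO, as do the leukocyte mRNAs at 12.0% (Control), 24.8% (ScxHt) and 7.91% (Dicer cKO).

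RNA-seq of the same tendon samples shows marker mRNAs of blood cells and vessels. In bulk tissue, fewer cells of a type and less RNA per cell cannot be told apart. The summed level of 12 endothelial genes was 930 CPM in Control, 689 in ScxHt and 1033 in Dicer cKO, with none of the 12 at 0. Pecam1, an adhesion protein of endothelial junctions, had 2727, 2114 and 3102 reads, and its ratio was 1.18 for Dicer cKO over Control (1.12 to 1.24), 0.743 for ScxHt over Control (0.702 to 0.787) and 1.62 for Dicer cKO over ScxHt (1.53 to 1.71). None of the 12 passed a limit in Dicer cKO over Control, where their median log2 ratio was 0.021. The background in this comparison was 3.87% higher and 4.18% lower of 13504 genes. In ScxHt over Control the median was -0.51 and 2 of 12 were lower, the receptor gene Flt1 at 0.570 and Robo4 at 0.571, against 3.05% higher and 4.73% lower of 13563 genes. In Dicer cKO over ScxHt the median was 0.66 and 2 of 12 were higher, Cdh5, which encodes VE-cadherin, at 1.79 and Kdr, a receptor of vascular endothelial growth factor, at 1.77. The background there was 7.67% higher and 5.68% lower of 13555 genes. By CPM, Mir126a and the endothelial sum were both lowest in ScxHt and highest in Dicer cKO. The single genes did not all keep this order: in Dicer cKO over Control, 6 of the 12 ratios were above 1 and 6 below.

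Egfl7, the gene around Mir126a, followed the same direction between the libraries with Cre. It had 670 reads in Control, 456 in ScxHt and 592 in Dicer cKO. The ratio was 0.918 for Dicer cKO over Control (0.820 to 1.03), 0.652 for ScxHt over Control (0.578 to 0.736) and 1.43 for Dicer cKO over ScxHt (1.26 to 1.62). The non-coding host transcripts Mir142hg and Mir155hg were rare, with 2, 9 and 7 reads and with 0, 7 and 0 in Control, ScxHt and Dicer cKO. F630028O10Rik had no row under this name in the RNA-seq counts, and Mfsd13a was not analysed here.

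Leukocyte mRNAs were highest in ScxHt by their summed level. The summed level of 11 pan-leukocyte genes was 112 CPM in Control, 171 in ScxHt and 81.7 in Dicer cKO, with none at 0. For ScxHt over Control all 9 genes above the minimum of 50 had ratios above 1, with a median log2 ratio of 0.54 and 1 past the limit, the signalling gene Vav1 at 2.24 (1.60 to 3.19), beside 3.05% of all genes. In Dicer cKO over ScxHt all 9 were below 1, with a median of -0.86 and 7 past the limit, beside 5.68% of all genes. Ptprc, which encodes the leukocyte antigen CD45, had 553, 688 and 343 reads, with a ratio of 0.549 (0.481 to 0.626) in that comparison. In Dicer cKO over Control the median was -0.59 and 2 were lower, beside 4.18% of all genes: the lysosomal gene Laptm5 at 0.570 (0.472 to 0.686) and the lymphoid transcription factor gene Ikzf1 at 0.595 (0.419 to 0.837). Without the minimum, the median of all 11 genes in this comparison was -0.15.

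Macrophage genes kept the same order. Their summed level over 10 genes was 287 CPM in Control, 485 in ScxHt and 241 in Dicer cKO. All 9 above the minimum had ratios above 1 in ScxHt over Control, with 7 past the limit, beside 3.05% of all genes. In Dicer cKO over ScxHt all 9 were below 1, with 8 past the limit, beside 5.68% of all genes. In Dicer cKO over Control all 9 were below 1, with a median log2 ratio of -0.38. The complement gene C1qb, at 0.422 (0.300 to 0.587), was the 1 past the limit, beside 4.18% of all genes. Csf1r, the receptor that macrophages need for survival, had 574 reads in Control, 1113 in ScxHt and 416 in Dicer cKO. ScxHt stood far above the other two, at a ratio of 1.86 over Control (1.68 to 2.06).

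The listed neutrophil and lymphocyte mRNAs were at or near the limit of detection. In small RNA-seq, Mir223 had 564 to 800 CPM and Mir150 had 403 to 444. CPM of small RNA-seq and of RNA-seq are not on a common scale, so these levels cannot be compared directly. The 10 neutrophil genes summed to 1.05 CPM in Control, 0.951 in ScxHt and 0.668 in Dicer cKO, and 8, 7 and 9 of them had no read. The granule genes Elane, Mpo and Camp, the surface gene Ly6g and the abundant S100a9 were at 0 in each library. The 5 B cell genes summed to 1.23, 1.46 and 1.003 CPM, and the 5 T cell genes to 2.40, 1.01 and 1.003, with Cd3d and Cd3g at 0 in each library. Platelet genes summed to 14.9, 18.8 and 12.0 CPM, with Ppbp and Treml1 at 0 in each.

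Erythroid mRNAs were higher in Dicer cKO than in both other libraries, whereas Mir144 passed no limit. The 8 erythroid genes in the table summed to 190 CPM in Control, 195 in ScxHt and 462 in Dicer cKO. All 5 above the minimum were past the upper limit in Dicer cKO over Control and over ScxHt, with median log2 ratios of 1.18 and 1.22. Of all genes, 3.87% and 7.67% were past that limit in these comparisons. None of the 5 was past a limit in ScxHt over Control. Hba-a1, an alpha-globin gene whose near-identical copy Hba-a2 may share reads with it, had 1316, 1339 and 3331 reads. Its ratio was 2.63 for Dicer cKO over Control (2.47 to 2.80). Alas2, the first enzyme of haem synthesis in erythroid cells, had 188, 243 and 411 reads and a ratio of 2.27 (1.91 to 2.71). The erythroid genes Slc4a1 and Epb42 had at most 11 reads in any library.

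**Figure D4:**
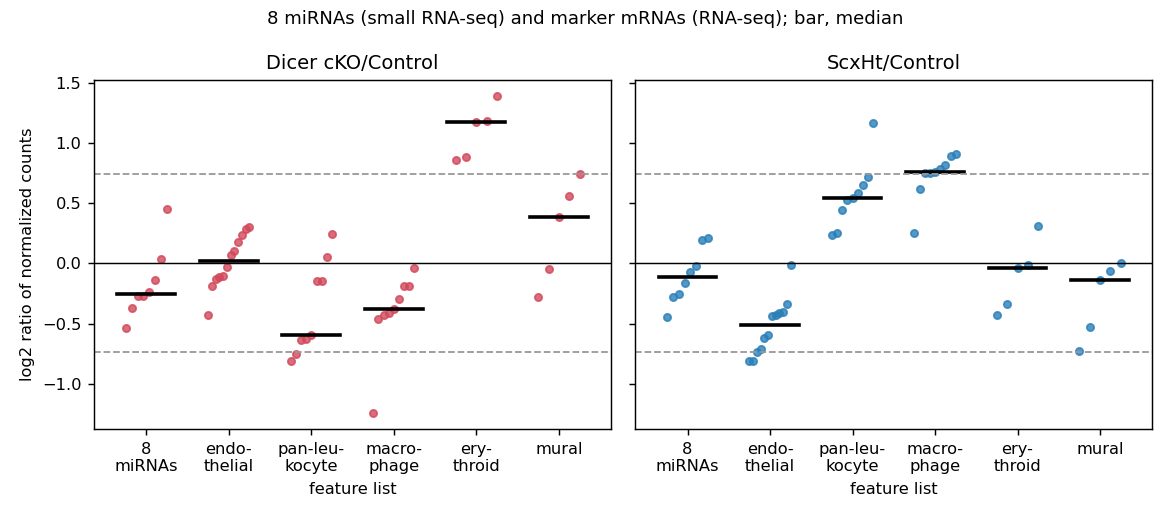
log2 ratios of the 8 miRNA loci (small RNA-seq) and of marker genes above the minimum (RNA-seq: 12 endothelial, 9 pan-leukocyte, 9 macrophage, 5 erythroid and 5 mural) for Dicer cKO over Control and ScxHt over Control; points are features, thick bars are medians and dashed lines mark ratios of 1.67 and 0.60. The erythroid genes stand high in Dicer cKO over Control, with a median of 1.18, and the macrophage genes stand high in ScxHt over Control, with a median of 0.76, while the 8 miRNAs lie between the lines in both.

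Mural cells, the pericytes and smooth muscle around vessels, were followed by 6 genes with a summed level of 760 CPM in Control, 625 in ScxHt and 880 in Dicer cKO. In Dicer cKO over Control 1 of 5 above the minimum was past the upper limit, beside 3.87% of all genes. It was the contractile gene Tagln at 1.67 (1.48 to 1.89), which lies at the limit. The smooth muscle miRNAs Mir143 and Mir145a had no call in any comparison. Mir143 had 76466, 64432 and 54279 reads in Control, ScxHt and Dicer cKO, with a ratio of 0.814 for Dicer cKO over Control (0.805 to 0.823). Mir145a lay on the other side of 1, with 1939, 1999 and 2585 reads and a ratio of 1.53 (1.44 to 1.62).

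A list of 32 further miRNA loci known from blood or vessels was described in the same way. Of these, 31 had a row and 25, 24 and 23 were above the minimum in Dicer cKO over Control, ScxHt over Control and Dicer cKO over ScxHt. Their median log2 ratios were -0.24, -0.063 and -0.17, and in Dicer cKO over Control 2 were higher and 1 lower, against the 8.38% and 4.19% of all features given above. The higher ones were from the Mir17-92 cluster, which is known for promoting proliferation. Mir19a had 41, 46 and 94 reads in Control, ScxHt and Dicer cKO, with a ratio of 2.63 (1.80 to 3.89), and Mir19b-1 had 400, 381 and 650 reads, with a ratio of 1.86 (1.64 to 2.11). Mir17, Mir18a, Mir20a and Mir92a-1 of that cluster had no call. Their ratios were 1.20 (0.905 to 1.60), 0.695 (0.378 to 1.25), 1.13 (0.958 to 1.33) and 0.760 (0.722 to 0.799). Both Mir19 loci were also past the limit in Dicer cKO over ScxHt, at 2.04 and 1.71. Mir511, which lies within the macrophage receptor gene Mrc1, was the lower one. It had 34 reads in Control, 27 in ScxHt and 3 in Dicer cKO, with a ratio of 0.101 (0.0199 to 0.322) to Control. Mrc1 itself had 1645, 2882 and 1218 reads. No locus of the list was past a limit in ScxHt over Control.

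The most abundant locus of that list was Mir16-1, with 489990 reads in Control and a ratio of 0.809 for Dicer cKO over Control. The lymphoid Mir342 and Mir181b-2 had ratios of 0.808 and 0.683 in that comparison, and Mir221, abundant in endothelial cells, had 0.683. Mir486a, listed as Mir486 and made in erythroid cells and in muscle, had 13513, 7237 and 10076 reads. Its ratio was 0.603 for ScxHt over Control (0.586 to 0.621), just inside the limit, and 0.855 for Dicer cKO over Control (0.833 to 0.877), unlike Mir144 and Mir451a, which were above 1 there.

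Genes known as targets of the members were read in RNA-seq, 22 in all, of which 18 were above the minimum. In Dicer cKO over Control none was past a limit, and the median log2 ratio was -0.14, beside -0.034 over all genes. In ScxHt over Control 1 of 18 was lower, where 4.73% of all genes were, and in Dicer cKO over ScxHt 2 were higher and 1 lower, where 7.67% and 5.68% of all genes were. These counts are near the background and are not a result about the targets, and the genes below are given for their values. Spred1, an inhibitor of growth factor signalling and the best known target of miR-126, had 1622, 1597 and 1454 reads in Control, ScxHt and Dicer cKO and a ratio of 0.931 for Dicer cKO over Control (0.867 to 0.9998). Traf6 and Irak1, signalling proteins below Toll-like receptors and targets of miR-146, had ratios of 1.14 (0.988 to 1.32) and 0.889 (0.812 to 0.973) in that comparison, so the pair lay on opposite sides of 1. Cfl2, an actin-binding gene known as a target of miR-142 and abundant in skeletal muscle, had 1958, 1080 and 2623 reads. It was lower in ScxHt over Control at 0.529 and higher in Dicer cKO over ScxHt at 2.68. Mef2c, a target of miR-223 and a transcription factor gene of muscle, was higher in Dicer cKO over ScxHt at 1.91, a direction that the skeletal muscle genes also had, with 6 of 7 past the limit. Inpp5d, which encodes the leukocyte phosphatase SHIP1 and is a target of miR-155, was lower there at 0.522 (0.443 to 0.615), as were 7 of 9 pan-leukocyte genes. The part of muscle and leukocyte RNA in these ratios was not tested.

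The annotated 3′ untranslated regions of the targets were searched on the sense strand for the site of 8 bases that pairs with the seed and ends in A. For miR-146 the site is AGTTCTCA, and Traf6 held 4, Irak1 held 2 and Relb held none, while 5.34% of 10961 genes held at least 1. For miR-155 the site is AGCATTAA. Each of the 6 listed targets held it, with 2 in Jarid2, against 3.76% of genes. For miR-142 the site is ACACTACA, found in Cfl2 and Rac1 but not in Adcy9 or Wasl, against 3.57% of genes. For miR-223 the site is AACTGACA, found in Mef2c and Igf1r but not in Nlrp3, and in 3.95% of genes. For miR-126 the site is CGGTACGA, which was rare, in 0.137% of genes, and none of the 3 listed targets held it. Of the listed targets without the full site, Spred1 held 1 shorter match, Wasl and Nlrp3 also held shorter matches, and the rest held none. For miR-144 the site is ATACTGTA, held once by its listed target Nfe2l2, a transcription factor gene of the oxidative stress response, and present in 5.01% of genes. No search was made for miR-150. Regions differ in length, and the targets were listed because they are known as such, so the shares of genes beside them are no test. A match is a description of the letters only.

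The members were set beside the miRNAs of the other tissues in the sample. Of 9 skeletal muscle loci, 8 were above the minimum. Their median log2 ratio was 0.75 for Dicer cKO over Control, -0.64 for ScxHt over Control and 1.31 for Dicer cKO over ScxHt. Past the upper limit were 4, 0 and 5 of them in this order, and past the lower limit 0, 1 and 0, against the shares of all features given above. The 2 Mir1a loci and the 2 Mir133a loci among them give nearly equal counts, since each pair makes the same mature strand. Mir206, made in skeletal muscle, had 310922, 134734 and 408434 reads. The 5 mesenchymal loci (the Mir199 loci, Mir214 and Mir21a) had no call and median log2 ratios of -0.43, -0.45 and -0.0026. The median of the 8 blood and vessel loci lay between those of the mesenchymal and the muscle loci for Dicer cKO over Control. For ScxHt over Control, at -0.11, the median lay above both, and for Dicer cKO over ScxHt, at -0.10, it lay below both.

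The miRNA loci with ratios most like those of each member were sought among 201 loci with a mean normalized count above 100, by the larger of the differences in log2 ratio for Dicer cKO over Control and ScxHt over Control. This likeness is over 3 libraries only. Mir223 and Mir155 were each nearest to the other, at a difference of 0.035, and both had Mir195a next. For Mir126a the nearest were Mir134 (0.033) and Mir673, for Mir142 Mirlet7c-1 (0.020) and Mirlet7c-2, and for Mir150 Mir193a and Mir379. For Mir146a they were Mir664 and Mir28a, for Mir146b Mir196a-2 and Mir21a, and for Mir144 Mir679 and the muscle locus Mir133b. Thus only Mir223 and Mir155 had another member among their nearest 2 loci.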

How the data were processed

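Small RNA-seq and RNA-seq were made from Achilles tendon of 3 genotypes with 1 library each. Per the study's methods and the labels, adaptors were removed, reads were mapped to GRCm38/mm10 with TopHat and Bowtie2, and HTSeq and DESeq2 were applied. Versions, annotation and strand setting are not given in the sources used here. The authors deposited raw counts per feature, used for all ratios, and RPKM values, used for the order of loci.

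Here, counts were divided by DESeq2 (1.42.0) size factors of each pair of libraries. Ratios carry exact binomial (Clopper-Pearson) 95% intervals. The study's limits were kept: ratio above 1.67 or below 0.60, and mean normalized count above 15 (small RNA-seq) or 50 (RNA-seq). The scripts were tested on simulated data. No genotype was tested, since each had 1 library per assay. The alternatives were edgeR (4.0.16) TMM factors, total counts, other size factors, minimums of 0 to 200, ratio limits of 2 and 0.5, and a pseudocount of 1. The named loci and genes are the 8 members, marker and target lists, host genes and the 2 loci nearest in pattern to each member. Members and lists were chosen with earlier results of these data known. Single values of 2 marker genes are not reported here.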

Additional observations from a re-analysis of the deposited data

How the results depend on the processing

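No paired analysis was possible because each genotype had 1 library per assay. Of 144 summary values recomputed under an alternative, 135 moved by less than a counting interval or, for counts, by less than 1.5 times. Many of these were counts of called members that were 0 throughout. For a median, the counting interval was that of its middle feature or features. It is not an interval of the median itself, so staying within it does not show that a median is stable. Of 144 ratios of single members, 38 moved beyond their counting interval. With total counts the median log2 ratio of the 8 loci was -0.067 for Dicer cKO over Control and 0.094 for ScxHt over Control, where the direction turned. With total counts that left out features above 1% of any library these medians were -0.13 and -0.016. The pan-leukocyte median was -0.15 for Dicer cKO over Control without a minimum (11 genes in place of 9) and -1.11 for Dicer cKO over ScxHt with a minimum of 200, where 3 genes remained. With the RPKM values of the authors, which divide by hairpin length, the ratio of Mir142 to Mir126a was 0.0390 in Control, 0.0416 in ScxHt and 0.0294 in Dicer cKO, in the same order as by reads. The depth limits Mir144 most, with 164 to 223 reads per library, and with 1 library per genotype the spread between animals is unknown.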
